A study of Mus musculus with 6 samples.

Results

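The ADAM and ADAMTS genes of C2C12 myoblasts were examined after knockdown of PRDM2, a nuclear protein of the PR domain family. C2C12 is a mouse myoblast line whose cells arrest when held in suspension and fuse into myotubes when they differentiate. Members were all genes whose only symbol in the platform annotation was Adam, Adamts or Adamtsl followed by a number and, in some, a letter. This rule gave 48 of the 18193 genes on the array, covered by 82 of 45037 probe sets. Of the 48 genes, 22 had more than 1 probe set. Expression was read on 6 Affymetrix arrays, 3 from a stable pool transfected with PRDM2 shRNA and 3 from a stable pool transfected with control GFP shRNA. Both pools had spent 48 hours in methylcellulose suspension with 20% fetal calf serum, a treatment used to bring myoblasts to G0, the quiescent state. Whether each pool was in G0 was not tested, and markers of differentiating muscle were higher in the knockdown pool. The labels call the 3 samples of a pool biological replicates without saying whether they came from separate transfections, so the p-values measure the spread between these samples.

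ADAMs are membrane proteins with a prodomain, a metalloprotease domain and a disintegrin domain. Those with an intact active site cut other membrane proteins close to the cell surface and release growth factors, cytokines and adhesion molecules, a step called shedding. ADAMTS proteases lack the membrane anchor, carry thrombospondin repeats and work in the extracellular matrix, where they trim procollagens and cut large proteoglycans. ADAMTS-like proteins have the repeats without the protease. In muscle, Adam12 (meltrin alpha) is known from studies of myoblast fusion and regeneration.

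Values are deposited intensities on a linear scale, and differences are of log2(intensity + 16) after quantile normalization, knockdown minus control. Because of the offset, a log2 difference of a dim probe set is smaller than the ratio of its intensities. Probe sets differ in brightness, so intensities were compared between arrays and not between genes. Each gene was represented by its brightest probe set, and a gene or probe set passed at a limma adjusted p under 0.05. Median intensity was 10.6 to 12.1 on the arrays, and 55.1% to 58.2% of probe sets lay below 16 on each. Across probe sets, correlations of arrays were 0.947 to 0.983 inside a group and 0.941 to 0.972 across groups. The 6 arrays are few, and their number limits the precision of every value. Control array 3 read the Gapdh control transcript at its 5' end at only 0.0992 of its 3' signal, while the other arrays had ratios of 0.704 to 1.14. Knockdown array 3 and control array 3 had mean intensities of 21.2 and 16.1 for the bacterial Dap spike, against 93.1 to 161 on the other 4. Prdm2 itself had 58.0, 51.5 and 29.0 on knockdown arrays 1 to 3, against 86.2, 73.6 and 47.1 on the control arrays, and did not pass at any of its 3 probe sets.

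Among the 48 genes, 4 were higher in knockdown cells, 3 were lower and 41 did not pass. Adam12, Adam23, Adamts3 and Adamts7 rose, and Adam8, Adam15 and Adamtsl4 fell. Of all genes 5.16% passed, 2.97% in the higher and 2.19% in the lower direction, against 14.6% of the members. The members were chosen with earlier results of these data known, so the shares were not tested against each other. The median log2 difference was -0.04 over the members and 0.00 over all genes, and 23 of the 48 members had a positive difference. Only Adam12, Adam23 and Adamts3 rose by at least 1 on the log2 scale, and only Adam8 and Adamtsl4 fell by as much. When every probe set was tested by itself, 8 of the 82 passed, 4 in each direction. The background there was 2.43% of probe sets, with 1.41% higher and 1.01% lower. The probe set calls added Adamts9 and Adamtsl5, whose brightest probe sets did not pass. They did not include Adam15 and Adamts7, which passed in the gene test alone. The values of the groups lay apart for 15 of the 48 genes, against 21.1% of all genes. With control array 3 left out, which had the low Gapdh ratio, 5 member genes passed. The count was also 5 without knockdown array 1, knockdown array 3 or control array 2. It was 6 without knockdown array 2 or control array 1.

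**Figure D1:**
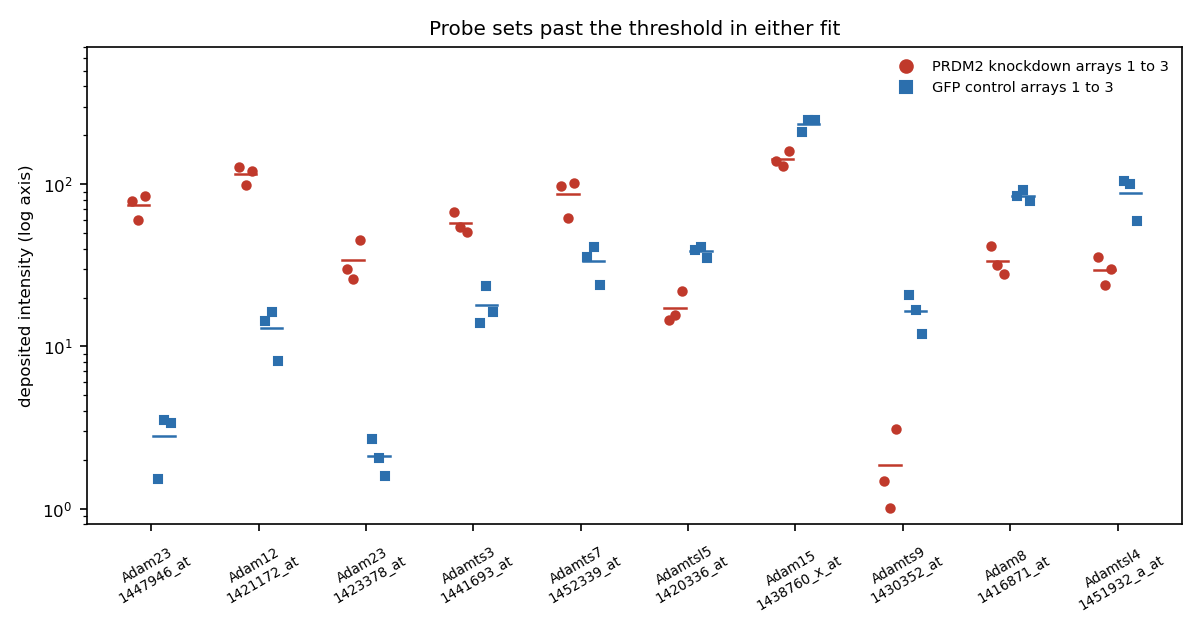
Deposited intensity on each array (log axis) for the 10 probe sets of 9 genes that passed in either test, ordered by log2 difference, with knockdown arrays as red circles left of control arrays as blue squares and a bar at each group mean. The 3 knockdown values lie outside the range of the 3 control values for each probe set shown, and control values of Adam23 are 1.52 to 3.54 at the probe set that represents it.

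**Figure D2:**
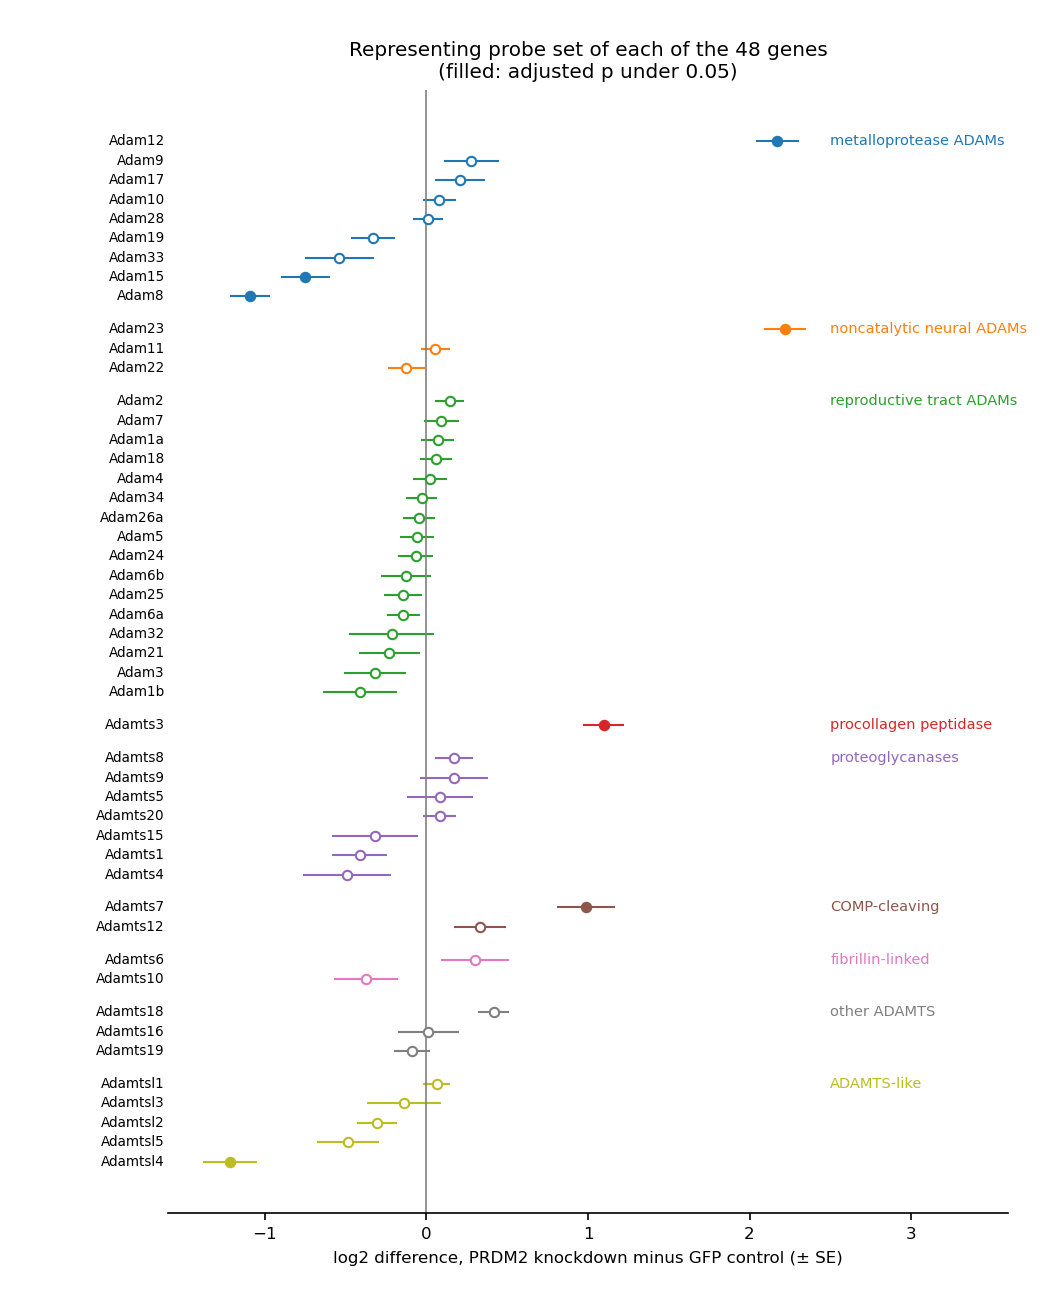
Log2 difference, knockdown minus control, with its standard error for the representing probe set of each of the 48 genes, grouped by the known role of the protein. Filled points passed at an adjusted p under 0.05, and the 16 genes of the reproductive tract group lie between -0.41 and 0.14.

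Adam12 was among the strongest changes in the family. This membrane protease, also called meltrin alpha, had intensities of 128, 99.0 and 120 on knockdown arrays 1 to 3, against 14.3, 16.2 and 8.13 on control arrays 1 to 3. Each knockdown value was thus several times the highest control value. On the log2 scale this was a rise of 2.17 (SE 0.134, limma adjusted p = 0.000464), and the gene passed under each of the 21 alternative settings that were run, from 1.39 to 3.10. Its other probe set was dimmer and also apart between the groups, at 17.1 ± 4.34 in the knockdown and 6.03 ± 1.70 in the control (SD, n = 3 each). Its difference of 0.60 did not pass (limma adjusted p = 0.0926). At the brighter probe set the difference was 2.03 among the 4 arrays with the stronger Dap spike, and 2.45 between the other arrays.

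Adam23 belongs to the ADAMs that lack a working protease site and act as adhesion proteins and as receptors for LGI proteins in the nervous system. Its representing probe set had 78.9, 59.9 and 84.4 on the knockdown arrays, against 1.52, 3.54 and 3.36 on the control arrays. The control values lay below the median of their arrays, and all 3 knockdown values lay above the median of theirs. The rise was 2.22 on the log2 scale (SE 0.130, limma adjusted p = 0.000439), and the gene passed under each of the 21 alternatives. The size of the rise ranged from 1.25 with the mean of its probe sets to 4.31 with an offset of 1, and was 1.57 with an offset of 32. Another Adam23 probe set had 29.9, 26.1 and 45.5 on the knockdown arrays, against 2.70, 2.04 and 1.59 on the control arrays. It passed over all probe sets (log2 difference 1.43, limma adjusted p = 0.00889) and in 16 of the 19 alternatives run. It missed the threshold in 3, with an adjusted p of up to 0.106, among them without knockdown array 1 (adjusted p = 0.0501). Its difference ranged from 0.93 to 3.43 over the alternatives run. The remaining probe set was dim in both groups, at 4.54 ± 3.37 in the knockdown and 2.80 ± 0.323 in the control (SD, n = 3 each).

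The other noncatalytic neural members did not pass. Adam11 had 10.6, 11.9 and 10.9 on the knockdown arrays, against 11.8, 10.7 and 8.85 on the control arrays. Adam22 had 4.03 ± 2.37 in the knockdown and 5.90 ± 0.416 in the control (SD, n = 3 each). The 4 LGI genes, whose secreted products bind these ADAMs, were dim as well. None of Lgi1 to Lgi4 passed, and their summed intensity was 24.6 to 36.4 on the knockdown arrays and 24.9 to 32.6 on the control arrays. Of 5 measured neural and glial markers none passed, with a sum of 37.0 to 44.5 in the knockdown and 41.4 to 60.7 in the control.

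Adamts3 and Adamts7, which code for secreted proteases, were higher in knockdown cells. Adamts3 removes the amino-terminal propeptide of fibrillar procollagens and is known to activate the growth factor VEGF-C. It had 66.9, 54.2 and 50.8 on the knockdown arrays, against 13.9, 23.5 and 16.3 on the control arrays. All knockdown values were more than those of every control array, and the rise was 1.10 on the log2 scale (SE 0.125, limma adjusted p = 0.00472). The gene passed without any single array and missed the threshold in the 4 arrays of higher spike signal (adjusted p = 0.0535). With the mean of its probe sets the rise was 0.52 (limma adjusted p = 0.0389). Its other probe set was dim, at 4.31 ± 1.24 in the knockdown and 5.35 ± 2.71 in the control (SD, n = 3 each).

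Adamts7 is known to cut COMP, a matrix protein of cartilage and tendon. It read 97.6, 61.6 and 102 on the knockdown arrays, against 35.7, 41.2 and 24.0 on the control arrays. The groups did not overlap, with knockdown array 2 closest to the control. The gene rose by 0.99 on the log2 scale (SE 0.181, limma adjusted p = 0.0285). This call rested on single arrays, since the adjusted p was 0.124 and 0.104 without knockdown arrays 1 and 3 and 0.0874, 0.0513 and 0.0804 without control arrays 1, 2 and 3. Among arrays of higher spike signal the difference was 0.78, and between the pair of lower signal it was 1.40. Adamts12, the related protease, did not pass, at 18.2 ± 3.97 in the knockdown and 11.8 ± 4.98 in the control (SD, n = 3 each; log2 difference 0.33).

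Adam8 showed the strongest fall among the membrane ADAMs. This sheddase, best known from leukocytes, had 41.3, 31.7 and 27.8 on the knockdown arrays, against 84.4, 91.5 and 78.2 on the control arrays. The groups lay far apart relative to their spread, and Adam8 differed by -1.09 on the log2 scale (SE 0.122, limma adjusted p = 0.00427). The gene passed without any single array, and it missed the threshold in the 4 arrays of higher spike signal (adjusted p = 0.0579). Of 6 measured macrophage and leukocyte markers none passed, but their summed intensity was also lower, at 288 to 355 in the knockdown and 469 to 553 in the control. The defining marker Ptprc was near 0, at 0.721 to 2.49 in the knockdown and 0.575 to 1.68 in the control, and Cd14 and Csf1r carried most of the sum. Itgam was dim as well, at 5.05 ± 2.05 in the knockdown and 4.72 ± 0.807 in the control (SD, n = 3 each). The samples were pools of a myoblast line, C2C12, and the part of any other cells in the Adam8 result was not tested. In a bulk sample, fewer cells of a type and less RNA per cell cannot be told apart.

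Adam15, a widely expressed ADAM with roles in cell adhesion, fell by less. Its representing probe set had 139, 130 and 160 on the knockdown arrays, against 209, 247 and 248 on the control arrays. The groups did not overlap, and Adam15 differed by -0.75 on the log2 scale (SE 0.151, limma adjusted p = 0.0395). The gene fit lost this call without any array but control array 1, with adjusted p of 0.156, 0.132 and 0.0758 without knockdown arrays 1 to 3 and 0.0827 and 0.077 without control arrays 2 and 3. The 4 Adam15 probe sets did not behave alike. A second probe set was apart in the same direction, at 41.1 ± 15.8 in the knockdown and 78.8 ± 12.8 in the control (SD, n = 3 each; log2 difference -0.83, limma adjusted p = 0.127). The others differed by 0.01 and -0.04. At the first of these, control arrays 1 to 3 lay wide apart, at 7.62, 46.2 and 6.11. With the mean of the 4 the gene did not pass (limma adjusted p = 0.219).

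Adamtsl4 was the member with the steepest fall of all 48. Its product carries no protease domain and binds fibrillin microfibrils. It had 35.3, 23.8 and 29.8 on the knockdown arrays, against 104, 100 and 59.3 on the control arrays. Control array 3 lay below the other control arrays and still above each knockdown array. It differed by -1.22 on the log2 scale (SE 0.165, limma adjusted p = 0.00921), or -1.37 within the arrays of higher and -0.90 between those of lower spike signal. In the gene test it passed without any single array. Over probe sets it passed with all arrays (limma adjusted p = 0.0186) and, with 1 array left out, without control array 3 alone (0.0220), the adjusted p being 0.0645, 0.0697 and 0.0840 without knockdown arrays 1 to 3, 0.0808 without control array 1 and just above the threshold without control array 2.

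To place these changes beside the genes' sequence, the 250 bases before the annotated start were read from RefSeq (GRCm38.p6) for the called members that the table held. It held 24 of the 48 genes and 7 of the 9 with a call, and Adam12 and Adamts7 are named only. Shown are 2 genes that rose and 2 that fell, with capitals marking each CANNTG (the E-box bound by myogenic factors, its own reverse complement) and each GGGCGG or its reverse complement CCGCCC (the GC box). No E-box overlapped a GC box in these windows.
Adam23, chr1:63445641-63445890, plus strand: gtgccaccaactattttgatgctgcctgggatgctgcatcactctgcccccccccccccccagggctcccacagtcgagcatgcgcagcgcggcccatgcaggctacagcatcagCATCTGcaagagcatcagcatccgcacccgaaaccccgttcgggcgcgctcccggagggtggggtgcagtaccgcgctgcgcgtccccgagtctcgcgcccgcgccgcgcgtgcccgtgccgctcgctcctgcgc
Adamts3, chr5:89883335-89883584, minus strand: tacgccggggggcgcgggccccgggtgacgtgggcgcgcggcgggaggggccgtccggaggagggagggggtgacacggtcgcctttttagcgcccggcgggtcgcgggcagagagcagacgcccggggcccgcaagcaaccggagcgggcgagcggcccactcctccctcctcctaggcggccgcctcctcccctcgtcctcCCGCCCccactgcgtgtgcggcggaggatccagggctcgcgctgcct
Adam8, chr7:139992563-139992812, minus strand: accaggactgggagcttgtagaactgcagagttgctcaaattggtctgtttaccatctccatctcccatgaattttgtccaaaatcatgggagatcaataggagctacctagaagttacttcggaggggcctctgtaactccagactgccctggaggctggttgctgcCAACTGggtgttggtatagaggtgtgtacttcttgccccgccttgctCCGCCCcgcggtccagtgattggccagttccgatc
Adamtsl4, chr3:95687918-95688167, minus strand: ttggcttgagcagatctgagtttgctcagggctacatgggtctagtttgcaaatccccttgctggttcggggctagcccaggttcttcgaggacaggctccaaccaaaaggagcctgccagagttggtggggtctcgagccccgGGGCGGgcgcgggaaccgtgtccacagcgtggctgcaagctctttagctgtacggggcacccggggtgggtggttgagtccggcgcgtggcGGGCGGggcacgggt
Adam23 and Adam8 each held 1 CANNTG, while Adamts3 and Adamtsl4 held none in this window. Among 32851 promoters of the same length 66.2% held CANNTG, against 17 of the 26 member promoters. GGGCGG on either strand was in 32.7% of all promoters, in 13 of the 26 member promoters and in 6 of the 7 of called genes, Adam23 being the exception. These matches are letters in a window and were chosen for a look after the changes were known, so no test was made. The windows also differed in CG content. The median of all promoters was 6 CG dinucleotides, against 6 for Adam8 and 17 to 35 for the other called genes. GGGCGG itself holds a CG, and the part of CG content in these shares was not tested.

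Adamts9 and Adamtsl5 each had a probe set that passed by itself while the gene's brightest probe set did not. Adamts9 codes for a secreted protease that cuts versican and aggrecan. At its passing probe set it read 1.48, 1.01 and 3.09 on the knockdown arrays, against 20.7, 16.7 and 11.9 on the control arrays. The knockdown values lay below the median of their arrays, and the probe set differed by -0.84 (SE 0.119, limma adjusted p = 0.0221 over all probe sets). The brightest Adamts9 probe set had 24.1, 23.5 and 39.6 on the knockdown arrays, against 29.1, 15.6 and 24.8 on the control arrays, so the groups overlapped (log2 difference 0.17). A further probe set differed by -0.08. The call at the passing probe set was lost without knockdown arrays 1, 2 or 3 (adjusted p = 0.107, 0.0944 and 0.0696) and without control arrays 1 and 2 (0.0644 and 0.0548). The passing probe set kept its call in 10 of the 18 alternatives run, and its difference ranged from -2.63 to -0.51.

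Adamtsl5 was lower at both of its probe sets, and only the dimmer passed. That probe set had 14.5, 15.5 and 21.9 on the knockdown arrays, against 39.0, 41.1 and 35.1 on the control arrays (log2 difference -0.73, SE 0.108, limma adjusted p = 0.0251 over all probe sets). The brighter had 40.4, 31.8 and 41.6 on the knockdown arrays, against 56.2, 47.0 and 67.2 on the control arrays. Its groups were also apart, but its difference of -0.49 did not pass (limma adjusted p = 0.275 over genes). The call was lost without knockdown array 1 or 2 (adjusted p = 0.12 and 0.098) and without control array 1, 2 or 3 (0.109, 0.0569 and 0.0849). The dimmer probe set passed in 8 of the 19 alternatives run, with a difference from -1.15 to -0.53. With an offset of 1 it did not pass (limma adjusted p = 0.0902). The other ADAMTS-like genes Adamtsl1, Adamtsl2 and Adamtsl3 differed by 0.06, -0.31 and -0.14 without passing.

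**Figure D3:**
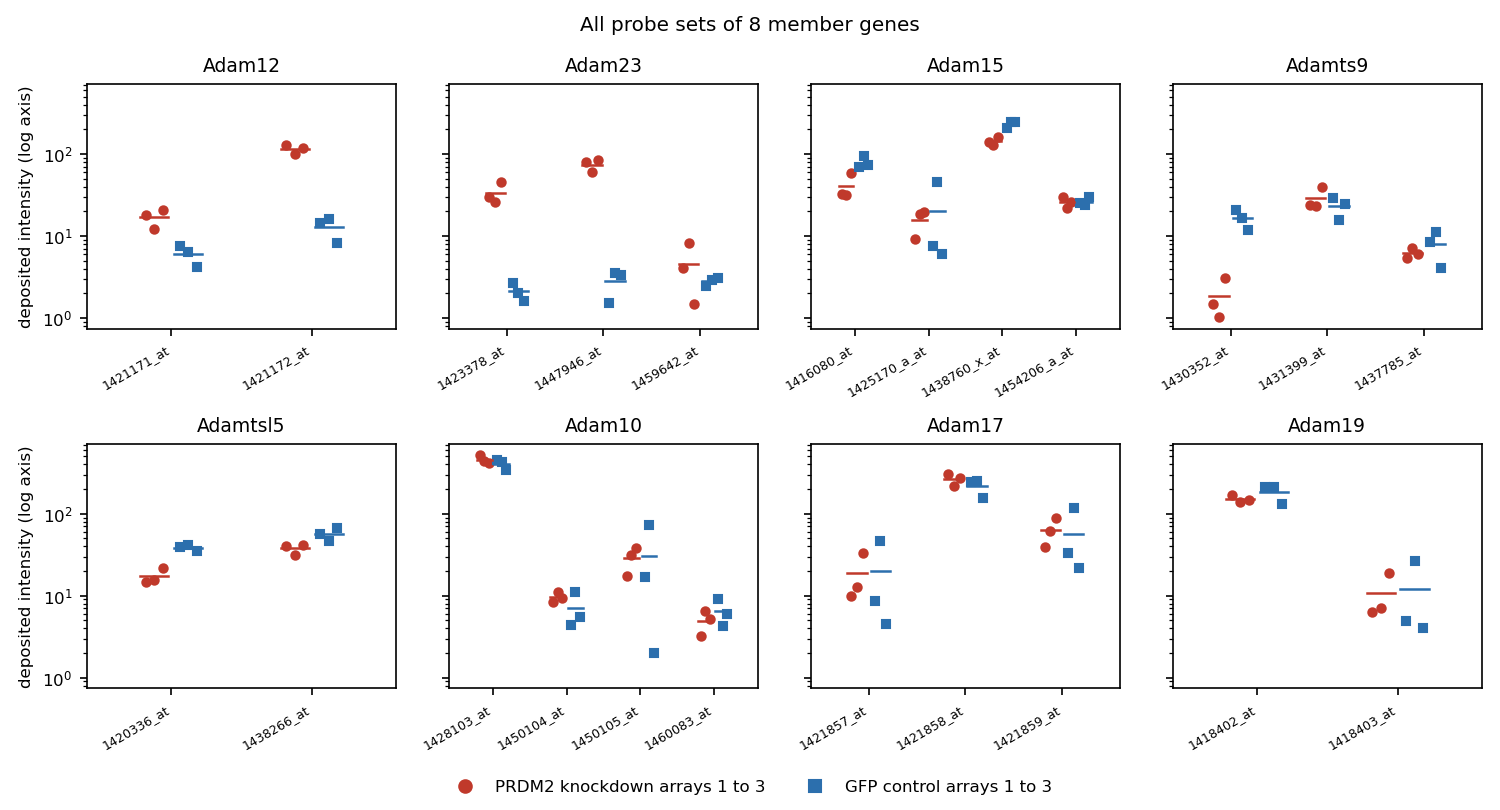
Deposited intensity (log axis) at every probe set of 8 member genes, knockdown arrays as red circles left of control arrays as blue squares, with bars at the group means. Adam12, Adam23, Adam15, Adamts9 and Adamtsl5 each have probe sets that passed in either test and others that did not, and in the lower row control array 2 is the highest and control array 3 the lowest point at 1 of the Adam10 probe sets, 2 of Adam17 and both of Adam19.

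The most studied sheddases, Adam10 and Adam17, did not pass at any of their 7 probe sets. Adam10, the protease that cuts Notch receptors and cadherins, had 517, 435 and 419 on the knockdown arrays, against 449, 425 and 346 on the control arrays. The groups overlapped, with a log2 difference of 0.08 (SE 0.101, limma adjusted p = 0.822). Adam17, which releases tumour necrosis factor and ligands of the EGF receptor, had 308, 219 and 276 on the knockdown arrays, against 243, 254 and 157 on the control arrays (log2 difference 0.20, SE 0.155, limma adjusted p = 0.656). A p above the threshold does not show that the levels were equal.

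Several other probe sets of these genes followed the arrays more than the groups. The dimmer Adam17 probe sets had 38.9, 61.8 and 88.4, and 9.96, 12.7 and 33.4, on the knockdown arrays, against 33.6, 116 and 21.9, and 8.56, 46.9 and 4.48, on the control arrays. At both, control array 2 was the highest of the 6 arrays and control array 3 the lowest. An Adam10 probe set showed the same order at its ends, with 17.3, 31.6 and 38.0 on the knockdown arrays and 17.1, 73.0 and 2.00 on the control arrays. The Gapdh ratio of 5' to 3' signal was likewise highest on control array 2, at 1.14, and lowest on control array 3, at 0.0992. This order at its ends was found at 10 of the 82 member probe sets and at 7.26% of all probe sets, and its relation to the Gapdh ratio was not tested. All 3 Adam17 probe sets are annotated to the same source transcript, and the brightest of them varied least between arrays.

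Adam9 and Adam19, relatives of Adam12 that are also called meltrin gamma and meltrin beta, did not pass. Adam9 had 591, 653 and 554 on the knockdown arrays, against 434, 648 and 355 on the control arrays, where control array 2 overlapped the knockdown (log2 difference 0.28, limma adjusted p = 0.558). Adam19, a sheddase of neuregulins, had 168, 139 and 148 on the knockdown arrays, against 210, 214 and 132 on the control arrays. Control array 3 lay below all knockdown arrays, unlike the other control arrays (log2 difference -0.33, limma adjusted p = 0.3). Adam33 had 15.9 ± 2.57 in the knockdown and 30.3 ± 9.81 in the control (SD, n = 3 each), with groups apart and no call (-0.54 on the log2 scale, limma adjusted p = 0.28). Adam28 had a log2 difference of 0.01.

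Among the proteases that cut aggrecan, versican and other large proteoglycans, none of the 7 genes passed at its representing probe set. Adamts1 had 224, 225 and 262 on the knockdown arrays, against 397, 329 and 208 on the control arrays, so that control array 3 fell below the knockdown range (log2 difference -0.41, limma adjusted p = 0.302). With array weights Adamts1 was lower by 0.64 and passed (adjusted p = 0.0352). Adamts4 had 431, 203 and 226 on the knockdown arrays, against 368, 476 and 283 on the control arrays. Its highest knockdown value exceeded all but 1 control value (log2 difference -0.49, limma adjusted p = 0.488). Adamts5, which processes versican and has been studied in myoblast fusion, had 36.6, 61.1 and 32.4 on the knockdown arrays, against 39.6, 32.7 and 39.9 on the control arrays. Its groups overlapped at each of its 4 probe sets, and the log2 differences were -0.07 to 0.48. Adamts1 and Adamts5 are neighbours on the genome, as are Adamts8 and Adamts15. Adamts8, Adamts15 and Adamts20 had means below 20 in both groups and differed by 0.17, -0.32 and 0.08.

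The remaining ADAMTS genes did not pass either. Adamts10 and Adamts6, which are tied to fibrillin microfibrils, differed by -0.38 and 0.30. Adamts10 read 63.5, 37.2 and 69.8 on the knockdown arrays, against 69.7, 71.3 and 73.2 on the control arrays, where knockdown array 2 stood below the rest. Adamts18 came closest to the threshold of the genes that did not pass, at 25.0 ± 3.24 in the knockdown and 14.8 ± 1.96 in the control (SD, n = 3 each), with groups apart (log2 difference 0.42, limma adjusted p = 0.0622). It passed with array weights (adjusted p = 0.0431). Adamts16 and Adamts19 differed by 0.01 and -0.09.

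The 16 ADAMs known mainly from testis, sperm and epididymis stayed dim on all arrays. These genes are Adam1a, Adam1b, Adam2, Adam3, Adam4, Adam5, Adam6a, Adam6b, Adam7, Adam18, Adam21, Adam24, Adam25, Adam26a, Adam32 and Adam34. Adam1b and Adam2 belong to the fertilin group of sperm surface proteins, and Adam3 is needed for sperm to bind the egg coat in mice. Their single intensities ran from 0.178 to 28.8, their means over the 6 arrays from 0.875 to 15.0, and none passed. The log2 differences were between -0.41, for Adam1b, and 0.14, for Adam2. None of the 8 measured male germ cell markers passed, with sums of 43.8 to 48.3 in the knockdown and 32.1 to 71.7 in the control. Several of these ADAMs lie side by side on the genome, among them Adam18, Adam3, Adam5 and Adam32, a row that ends in Adam9.

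Genes that mature, inhibit or bind these proteases, or are cut by them, were taken as companions. Of 109 measured 13 rose, 4 fell and 92 did not pass, with a median log2 difference of -0.01. That was 15.6% of the companions, against 5.16% of all genes. The lists were chosen with earlier results of these data known, so these shares were not tested against each other. Of the 17 calls 8 held without any single array. Counting all companions that passed, whether or not among the 17, gave 9 without knockdown array 1, 11 without knockdown array 3 and 11 without control array 1.

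**Figure D4:**
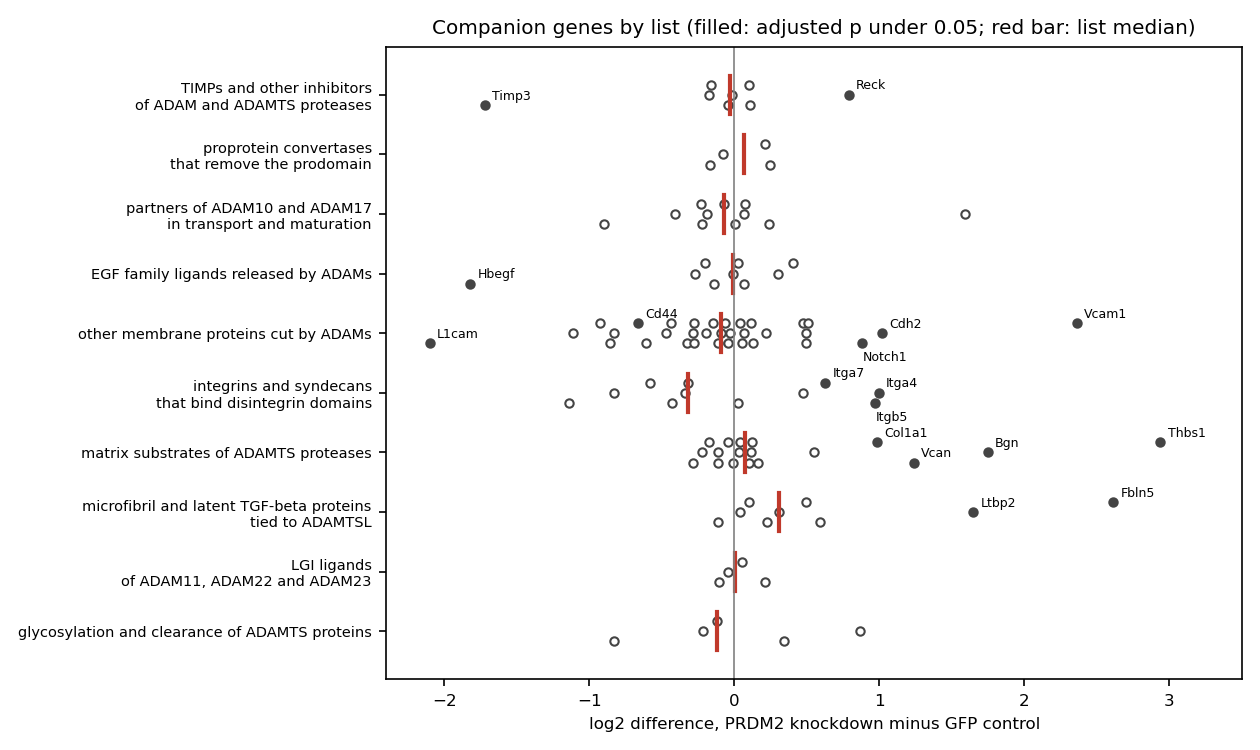
Log2 difference, knockdown minus control, of each companion gene by list, with filled points for genes that passed and a red bar at the list median. Calls lie on both sides of 0 for the inhibitors and for the membrane proteins, and only to the right of 0 for the integrins and matrix substrates.

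Of 8 inhibitors, 1 rose and 1 fell, with a list median of -0.03. Timp3, the tissue inhibitor with the broadest action on ADAM and ADAMTS proteases, fell, with 185, 292 and 218 on the knockdown arrays, against 783, 1098 and 481 on the control arrays. Its change was -1.72 on the log2 scale (SE 0.258, limma adjusted p = 0.013), and the adjusted p was 0.0594 and 0.0627 without knockdown arrays 1 and 3 and 0.0551 without control array 1. With the mean of its probe sets Timp3 did not pass (limma adjusted p = 0.0569). Reck, a membrane-anchored inhibitor that acts on ADAM10, rose, with 49.2, 45.5 and 36.9 on the knockdown arrays, against 19.9, 23.0 and 12.8 on the control arrays (log2 difference 0.79, limma adjusted p = 0.0184). That call was lost without knockdown array 1 or 2 and without control array 1 (adjusted p = 0.0913, 0.0754 and 0.058). Timp1, Timp2 and Timp4 differed by -0.16, -0.02 and 0.10.

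None of the 4 convertases that remove prodomains passed, and none of the 11 transport and maturation partners of ADAM10 and ADAM17 did. Furin had 286 ± 79.0 in the knockdown and 225 ± 19.2 in the control (SD, n = 3 each; log2 difference 0.21). Rhbdf1 and Rhbdf2, the inactive rhomboids that carry ADAM17 to the surface, differed by 0.08 and -0.07. Tspan33 had 429 ± 145 in the knockdown and 142 ± 116 in the control (SD, n = 3 each), with overlapping groups (limma adjusted p = 0.231). Tspan15 had 11.9 ± 2.72 in the knockdown and 38.1 ± 18.2 in the control (SD, n = 3 each). Its groups were apart, with a log2 difference of -0.90 (limma adjusted p = 0.0833).

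Among proteins that ADAMs cut, Hbegf was the only call in 9 measured EGF family ligands. It had 46.4, 79.8 and 32.2 on the knockdown arrays, against 232, 211 and 180 on the control arrays. Every knockdown value lay below every control value (log2 difference -1.82, SE 0.237, limma adjusted p = 0.00782). Of 33 other membrane proteins 3 rose, 2 fell and 28 did not pass, with a median of -0.09. Vcam1, an adhesion molecule of fusing myoblasts, rose by 2.36 with 429, 385 and 481 on the knockdown arrays, against 57.4, 91.4 and 54.9 on the control arrays. L1cam, a neural adhesion molecule and substrate of ADAM10, fell by 2.10, with 8.64, 4.15 and 8.66 on the knockdown arrays, against 97.0, 71.9 and 75.2 on the control arrays. With the mean of its probe sets L1cam fell by 1.07, and it passed. Notch1, the receptor activated through ADAM10, rose by 0.88. N-cadherin, Cdh2, rose by 1.02, a call lost without knockdown array 1 or 2 and control array 1 or 3 (adjusted p = 0.157, 0.134, 0.129 and 0.104). Cd44, the hyaluronan receptor, fell by 0.67, a call that held only without control array 1 when single arrays were left out (adjusted p = 0.0411, up to 0.104 without the others). With the mean of its probe sets Cd44 did not pass (limma adjusted p = 0.0806). With an offset of 1, Cdh2 and Cd44 missed the threshold as well (limma adjusted p = 0.0694 and 0.175).

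The integrins and syndecans that can bind disintegrin domains gave 3 rises and 8 genes without a call of 11 measured, with a median of -0.32. Itga4 rose by 1.00, with 55.1, 45.0 and 49.2 on the knockdown arrays, against 19.6, 14.4 and 15.0 on the control arrays. This call ended with the mean of its probe sets, where the difference was 0.09 (limma adjusted p = 0.809). Itgb5 and Itga7 rose by 0.97 and 0.63 with limma adjusted p of 0.0482 and 0.0396. Itga7 missed the threshold without any of the 6 arrays (adjusted p = 0.0872 to 0.103), and Itgb5 without any but knockdown array 2 (0.077 to 0.152). Both also missed it with an offset of 1 (limma adjusted p = 0.179 for Itga7 and 0.0854 for Itgb5). Itga5, a fibronectin receptor chain, had 220, 111 and 238 on the knockdown arrays, against 424, 459 and 312 on the control arrays, and just missed the threshold (limma adjusted p = 0.0557). Itga9, a known partner of several disintegrin domains, differed by 0.03.

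Of 18 matrix substrates of ADAMTS proteases 4 rose, 0 fell and 14 did not pass, with a median of 0.07. Vcan, versican, had 924, 795 and 939 on the knockdown arrays, against 361, 488 and 241 on the control arrays (log2 difference 1.24, SE 0.188, limma adjusted p = 0.0134). With the mean of its probe sets the rise was 0.46 (adjusted p = 0.0407). The adjusted p was 0.0692 and 0.0645 without knockdown arrays 1 and 3 and 0.0625 without control array 1. Thbs1 and Bgn rose by 2.94 and 1.75, and Thbs1 did not pass without control array 1 (adjusted p = 0.06). Col1a1, a fibrillar procollagen chain, rose by 0.98, with an adjusted p of 0.109, 0.104 and 0.103 without knockdown arrays 1 to 3 and 0.0836 without control array 3. At its probe set of largest interquartile range the rise was 1.89. Col3a1 and Col1a2, also fibrillar procollagens, had differences that did not pass. Among 9 microfibril and latent TGF-beta proteins Fbln5 and Ltbp2 rose by 2.61 and 1.65, and the list median was 0.31. With the mean of its probe sets Fbln5 rose by 1.32, and it passed. None of 5 genes for the glycosylation and clearance of ADAMTS proteins passed.

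The cells carried myoblast markers in both groups. Des, Myod1 and Cdh15 did not pass, Myf5 fell by 1.29 and Itga7 rose, and the 6 myoblast markers summed to 1548 to 1781 in the knockdown and 1549 to 1991 in the control. All 6 markers of differentiating muscle rose, with sums of 4801 to 6004 on the knockdown arrays and 97.7 to 208 on the control arrays. Adam12, Adam23 and the other rises above came with a rise of the muscle differentiation markers, and the part of differentiating cells in them was not tested. Of 5 fibroblast markers none passed, at sums of 365 to 423 in the knockdown and 135 to 373 in the control. Pdgfra carried most of that sum, at 381 ± 28.6 in the knockdown and 231 ± 119 in the control (SD, n = 3 each). The fibroblast markers Tcf21, Dpt, Lum and Thy1 had means below 10 in both groups. Of 6 endothelial and 3 measured adipocyte markers none passed. Among 5 epithelial markers Epcam alone passed, higher by 0.66, while Cdh1, Krt8 and Krt18 had means below 10 in both groups.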

How the data were processed

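Expression was measured on 6 Affymetrix arrays, 3 of PRDM2 knockdown and 3 of GFP control cells, from biotin-labelled cRNA made of 8 µg total RNA, per the labels' protocols. The authors deposited an intensity for each probe set of each array, on a linear scale. The submitters' processing notes list GCOS and PLIER with no version. Background correction and array normalization were not given in the sources used here.

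Of 45101 probe sets, 64 were controls and stayed out of tests. The interquartile range differed by up to 15.0% between arrays, so values were quantile normalized and transformed as log2(intensity + 16). Genes were tested with lmFit and eBayes in limma 3.58.1 (R 4.3.3) with Benjamini-Hochberg adjustment over 18193 genes, each represented by its probe set of highest mean, and probe sets over 45037. A single symbol was annotated for 34945 probe sets, more than 1 for 932 and no symbol for 9160, and 5 probe sets that share a member with another gene were left out. All 48 member genes matched the mouse gene table. No other sample columns were present (0).

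Members and lists were chosen with earlier results of these data known. Named genes are members with a call in full, members of at least the median gene's mean, the other members by range, the called companions (up to 4 a direction and list) and Timp3, Furin, Rhbdf2, Reck, Adam10, Adam12, Adam17, Adam19, Adamts1, Adamts5 and Prdm2. Any further gene was picked with its values in view. The fit was tested on simulated data. Alternatives covered normalization, offset, a filter on low values, variance model, array weights, probe set choice, the replicate number as a block, the spike level, the Gapdh ratio and leaving out each array.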

Additional observations from a re-analysis of the deposited data

How the results depend on the processing

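All 7 member gene calls kept their direction under each of the 21 alternatives, and Adam12 and Adam23 passed in every one. Adam8 passed in 19, Adamts3 in 19, Adamtsl4 in 20, Adamts7 in 12 and Adam15 in 8. Tested over probe sets with 19 alternatives, Adam12 passed in 19, the 2 Adam23 probe sets in 19 and 16, and Adam8 in 17. Adamts3 passed there in 16, Adamtsl4 in 10 and Adamtsl5 in 8, and Adamts9 passed in 10 of 18. With ordinary statistics in place of moderated ones 2 member genes, 2 member probe sets, 206 of all genes and 3 companions passed, where 10 member genes (20.8%), 28 companions (25.7%) and 2475 of all genes (13.6%) were under an unadjusted p of 0.05. In the 4 arrays of higher spike signal the counts were 3, 2, 359 and 8, with fewer arrays. Array weights gave 1620 calls over all genes, against 939. Leaving out each array in turn gave 5 to 6 member genes, 4 to 7 member probe sets, 445 to 816 of all genes and 9 to 16 companions. The member probe sets numbered 4 without knockdown array 1 and 5 without control array 1 or 2. With the replicate number as a replicate block, 6 member genes, 4 member probe sets, 719 of all genes and 14 companions passed. Same-numbered arrays deviated together with correlations of 0.342, 0.00770 and 0.116 over genes, against -0.389 to 0.162 for arrays of unlike number. Both arrays numbered 3 also had the low Dap spike. These values do not settle whether the numbers pair the samples, and the main fit left them unpaired. The Gapdh ratio as a covariate, added after the data were seen, left 5 member genes. The causes of these changes were not tested. Brightness limits the dim members, since 27 of the 48 had a mean below the offset of 16.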
